A study of Mus musculus with 4 samples.

Results

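A set of 10 genes of sarcomere assembly was examined in cultured mouse primary myoblasts with and without a functional Tet2 gene. They were chosen by name as the myosin chaperones Unc45a, Unc45b and Smyd1, the Kelch genes Klhl30, Klhl31, Klhl40 and Klhl41, the Xin repeat genes Xirp1 and Xirp2, and the ubiquitin ligase adaptor Asb2. All 10 were found by symbol among the 24445 genes of the expression table. The libraries were made from satellite cells of C57BL/6 hindlimb muscle, sorted for CD34 and integrin alpha 7 and against CD45, CD11b, CD31 and Sca1, and grown on type I collagen for at least 3 days until they were MyoD+ myoblasts. Both groups shared this strain, sort and culture, and none of the cells had been placed in differentiation medium. The WT group held 2 libraries and the Tet2 KO group held 2, the latter from mice that lack exon 3 of Tet2 in every cell; per the study's methods, adult males were used unless stated otherwise. Expression was given as 1 FPKM value per gene and group, that is, fragments scaled by transcript length and by the number of mapped fragments. Whether both libraries of a group entered its value is not stated outright, and the values are called pooled here because the table names groups and not libraries. No spread between libraries could be computed, so every difference below is a description of pooled values with no test, no SD and no p-value.

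A sarcomere is built from thick filaments of myosin and thin filaments of actin, and both need helpers to fold and to be placed. Myosin heads are folded by UCS domain chaperones of the Unc45 family together with Hsp90, and Smyd1, a SET and MYND domain protein of striated muscle, takes part in the same step. The muscle Kelch proteins carry BTB and Kelch domains, bind Cullin 3, and in the case of Klhl40 and Klhl41 are known for protecting thin filament proteins. Xin repeat proteins bind actin where filaments end at membranes, and Asb2 brings substrates such as filamins to a Cullin 5 ligase.

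As a whole the 10 genes lay lower in Tet2 KO, and 1 of them, Unc45a, differed little. A gene was counted as lower when log2((Tet2 KO FPKM + 1) / (WT FPKM + 1)) was at or below -1, which is a 2-fold difference, and when its mean over both groups was at least 1 FPKM. The added 1 FPKM makes the ratios of low genes smaller than the plain ratios. All 10 genes were above 1 FPKM in each group. They and the gene lists below were chosen with earlier results of these data known. Shares set beside those of all genes therefore describe these sets and test nothing. Of the 10, 6 were at least 2-fold lower in Tet2 KO, while 1.21% of the 11692 genes with a mean of at least 1 FPKM were. None was at least 2-fold higher, against 2.08% of all genes. At the lesser threshold of 1.5-fold, 9 of the 10 genes were lower, against 2.89% of all genes. The median log2 ratio of the 10 genes was -1.12, and that of all genes was -0.0044. Their summed level was 214 FPKM in WT and 105 FPKM in Tet2 KO.

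**Figure D1:**
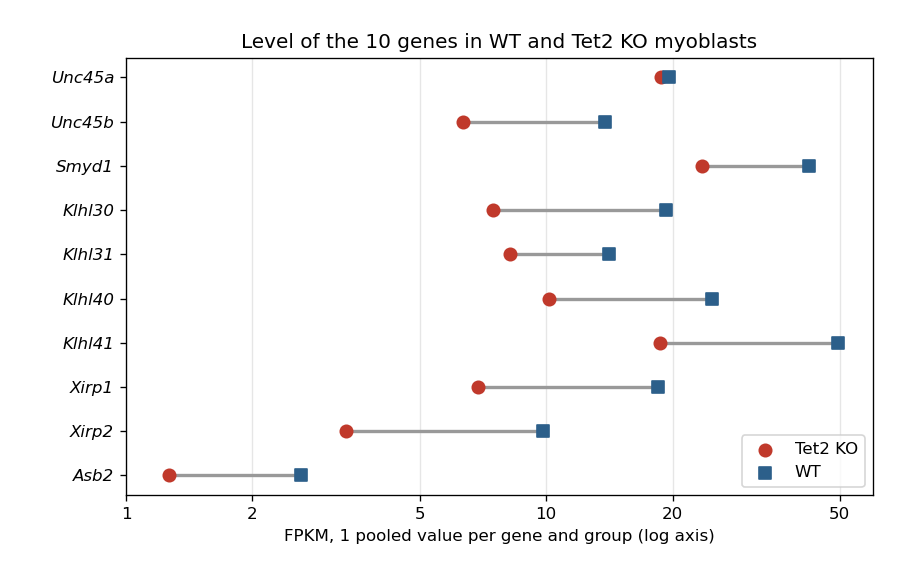
Levels of the 10 genes in FPKM on a log axis, 1 pooled value per gene and group, with squares for WT and circles for Tet2 KO and a line joining both values of a gene. Each circle lies left of its square, and the pair of Unc45a, 18.8 and 19.6 FPKM, nearly coincides.

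The order of the levels was not the same in both groups. In WT, Klhl41 stood highest at 49.6 FPKM, followed by Smyd1, Klhl40 and Unc45a, and Asb2 stood lowest at 2.61 FPKM. In Tet2 KO, Smyd1 came first at 23.5 FPKM, Unc45a moved from rank 4 to rank 2, and Klhl41 moved from rank 1 to rank 3. Ranks that lie close together, such as Unc45a and Klhl41 in Tet2 KO at 18.8 and 18.6 FPKM, cannot be ordered without a spread between libraries. The FPKM values are per length, so genes may be compared within a group.

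The myosin chaperones were examined first. Unc45a, the paralogue found in most cell types, lies on the minus strand of chromosome 7 from 87470179 to 87485105 of mm9. It had 19.6 FPKM in WT and 18.8 FPKM in Tet2 KO, a log2 ratio of -0.06, and 35.8% of all genes had a lower ratio. Unc45b, the striated muscle paralogue, lies on the plus strand of chromosome 11 from 82724755 to 82778352. It had 13.8 FPKM in WT and 6.33 FPKM in Tet2 KO. Its log2 ratio of -1.02 lay just past the 2-fold line, and 1.20% of all genes had a lower ratio. The muscle paralogue thus stood at 0.706 times the level of Unc45a in WT and at 0.336 times in Tet2 KO. No stretch of 30 bases was shared between annotated coding transcripts of Unc45a, Unc45b and any other gene, so reads of both could be told apart by sequence. The interval given for Unc45b runs 21447 bases past its annotated end and takes in Slfn5, which had 0.936 FPKM in WT and 1.02 FPKM in Tet2 KO, and 406 exonic bases of Unc45b lie opposite annotated genes on the other strand. The kit does not mark strand, so reads from those bases cannot be assigned.

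The sequences just before the start sites of both paralogues are shown because their levels moved apart. They were taken from RefSeq promoter windows of build GRCm38.p6 and placed by an exact and unique match in mm9. Each run is the 250 bases before the RefSeq start, 5′ to 3′ on the gene's strand, and capitals mark every match to CANNTG. In the annotation used for strand and exons (GENCODE vM1), Unc45a extends upstream to 87485891 and Unc45b to 82724052. Both windows thus lie inside those wider gene spans. This is the general E-box pattern, and not every form of it is one that MyoD or myogenin prefers.
Unc45a: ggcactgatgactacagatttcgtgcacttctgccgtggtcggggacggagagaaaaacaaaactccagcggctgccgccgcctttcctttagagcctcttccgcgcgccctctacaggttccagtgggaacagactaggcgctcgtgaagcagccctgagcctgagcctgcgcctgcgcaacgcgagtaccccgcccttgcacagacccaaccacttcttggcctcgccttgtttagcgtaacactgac
Unc45b: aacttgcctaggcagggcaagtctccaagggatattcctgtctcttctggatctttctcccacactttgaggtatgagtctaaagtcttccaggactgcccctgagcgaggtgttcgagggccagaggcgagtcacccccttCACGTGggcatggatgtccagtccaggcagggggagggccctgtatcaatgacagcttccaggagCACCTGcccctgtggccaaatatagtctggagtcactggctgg
The window of Unc45a spans chr7:87485106-87485355 of mm9 on the minus strand, holds 19 CpG dinucleotides and has no CANNTG. The window of Unc45b spans chr11:82724505-82724754 on the plus strand, holds 4 CpG dinucleotides and has 2 matches to CANNTG. Over the promoters of genes with a mean of at least 1 FPKM the median was 16 CpG dinucleotides, and over all 32841 promoter windows it was 6.

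Smyd1 lies on the minus strand of chromosome 6 from 71163934 to 71212275. It had 42.2 FPKM in WT and 23.5 FPKM in Tet2 KO, a log2 ratio of -0.82, so it did not reach the 2-fold line. Of all genes, 1.76% had a lower ratio. Smyd1 stood at 3.05 times the level of Unc45b in WT and at 3.71 times in Tet2 KO. The clients of these chaperones, the sarcomeric myosin heavy chains Myh1, Myh2, Myh3, Myh4, Myh7 and Myh8, summed to 475 FPKM in WT and 153 FPKM in Tet2 KO, 3.11-fold lower. Over the same comparison Unc45b was 2.19-fold lower, Smyd1 was 1.80-fold lower and Unc45a was 1.04-fold lower. The summed myosin level per unit of Unc45b was 34.3 in WT and 24.1 in Tet2 KO, and per unit of Smyd1 it was 11.3 and 6.50.

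Among the Kelch genes, 3 of 4 were at least 2-fold lower in Tet2 KO, against 1.21% of all genes. Klhl41, a partner of nebulin and Nrap, lies on the plus strand of chromosome 2 from 69508177 to 69522296. It had 49.6 FPKM in WT and 18.6 FPKM in Tet2 KO, and its log2 ratio of -1.37 was the lowest of the 10 genes. Of all genes, 0.462% had a lower ratio. Of the 30-base stretches of its annotated transcript, 5.16% recurred in transcripts of other genes, none of them another of the 10. Klhl40, which stabilises nebulin and leiomodin 3, lies on the plus strand of chromosome 9 from 121686725 to 121692937. It had 24.9 FPKM in WT and 10.2 FPKM in Tet2 KO, a log2 ratio of -1.21. The level of Klhl41 was 1.99 times that of Klhl40 in WT and 1.83 times in Tet2 KO, so this pair kept a similar proportion.

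Klhl30, a muscle Kelch gene whose role is less well described, lies on the plus strand of chromosome 1 from 93247650 to 93258981. It had 19.3 FPKM in WT and 7.47 FPKM in Tet2 KO, a log2 ratio of -1.26. Klhl31, on the plus strand of chromosome 9 from 77484539 to 77507929, was the exception in this group. It had 14.1 FPKM in WT and 8.19 FPKM in Tet2 KO, and its log2 ratio of -0.72 stayed short of the 2-fold line. Klhl41 stood at 3.51 times the level of Klhl31 in WT and at 2.27 times in Tet2 KO.

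The promoter windows of Klhl40 and Klhl41 are shown because both genes lay past the 2-fold line and both windows hold CAGCTG. Capitals again mark CANNTG.
Klhl40: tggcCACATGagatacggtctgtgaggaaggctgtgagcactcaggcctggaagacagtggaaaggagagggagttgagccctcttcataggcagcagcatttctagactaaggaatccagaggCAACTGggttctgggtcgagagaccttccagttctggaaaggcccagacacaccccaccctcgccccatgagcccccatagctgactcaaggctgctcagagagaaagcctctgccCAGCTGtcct
Klhl41: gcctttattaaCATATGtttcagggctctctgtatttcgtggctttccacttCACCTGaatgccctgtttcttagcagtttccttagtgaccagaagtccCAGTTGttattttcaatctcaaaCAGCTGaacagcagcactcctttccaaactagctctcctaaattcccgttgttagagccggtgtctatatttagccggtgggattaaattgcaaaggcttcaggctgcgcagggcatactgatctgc
The window of Klhl40 spans chr9:121686475-121686724 of mm9 and has 3 matches to CANNTG, 1 of which reads CAGCTG and begins 10 bases before the start site. The window of Klhl41 spans chr2:69507927-69508176 and has 4 matches, of which the CAGCTG begins 127 bases before the start. Klhl41 also holds a match to the MEF2 site, beginning 63 bases before the start.

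Of 3 partners of these Kelch proteins, chosen after their values were seen, 2 were at least 2-fold lower, against 1.21% of all genes. Given that choice, the count describes these 3 genes only. Neb, the gene of nebulin, had 53.2 FPKM in WT and 28.8 FPKM in Tet2 KO, a log2 ratio of -0.86, short of the line. Lmod3, the gene of leiomodin 3, had 31.6 and 11.0 FPKM, a log2 ratio of -1.44. Nrap, which encodes a nebulin-related anchoring protein of growing myofibrils, had 33.5 and 9.81 FPKM, a log2 ratio of -1.67. Thus Neb stood at 2.14 times the level of Klhl40 in WT and at 2.84 times in Tet2 KO, whereas Lmod3 stood at 1.27 and 1.09 times.

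Both Xin repeat genes were at least 2-fold lower in Tet2 KO, as were 1.21% of all genes. Xirp1, on the minus strand of chromosome 9 from 119922873 to 119932716, had 18.5 FPKM in WT and 6.89 FPKM in Tet2 KO, a log2 ratio of -1.30. Xirp2, on the plus strand of chromosome 2 from 67284059 to 67364663, had 9.85 FPKM in WT and 3.34 FPKM in Tet2 KO, a log2 ratio of -1.32. By the plain ratio Xirp2 was 2.95-fold lower, the largest difference of the 10 genes. Most of its longest annotated transcript, 9265 of 11979 bases, is a single exon, and 168 exonic bases lie opposite an annotated gene on the other strand. Xirp1 stood at 1.87 times the level of Xirp2 in WT and at 2.06 times in Tet2 KO. Actn2, the gene of alpha-actinin 2 of the Z-disc, had 42.3 FPKM in WT and 13.4 FPKM in Tet2 KO. Transcripts of some other membrane attachment proteins, chosen after their values were seen, differed little. Their log2 ratios were -0.03 for Ctnnb1, -0.16 for Cdh2, -0.21 for Vcl and 0.19 for Tln1.

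The promoter window of Xirp2 is shown because it holds a MEF2 site and no CpG dinucleotide. It spans chr2:67283809-67284058 of mm9, and capitals mark a pair of overlapping CANNTG matches.
Xirp2: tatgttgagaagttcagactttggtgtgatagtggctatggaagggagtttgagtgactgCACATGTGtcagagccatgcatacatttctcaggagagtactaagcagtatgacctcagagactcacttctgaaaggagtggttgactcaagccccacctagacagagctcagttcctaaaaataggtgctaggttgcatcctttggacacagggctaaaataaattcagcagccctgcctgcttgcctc
The match to the MEF2 site begins 74 bases before the start.

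Asb2 was the lowest expressed of the 10 genes. It lies on the minus strand of chromosome 12 from 104559352 to 104594211 and had 2.61 FPKM in WT and 1.27 FPKM in Tet2 KO. By the plain ratio it was 2.06-fold lower, but at this level the added 1 FPKM brought its log2 ratio to -0.67. Among its filamin substrates, Flna had 353 FPKM in WT and 363 FPKM in Tet2 KO, and Flnc had 96.2 and 56.4 FPKM. Asb2 is known to use different starts in muscle and in blood cells, and the value per gene joins them. Leukocyte genes were higher in Tet2 KO, as given further on, and their part in the value of Asb2 was not tested.

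Across the 8 genes with a promoter window, 9 windows in all, 5 patterns were searched. Matches to CANNTG on either strand were found for 5 of the 8 genes, while 66.2% of 32841 promoter windows of the same length hold one, and 57.1% of the 11633 windows of genes with a mean of at least 1 FPKM. CAGCTG, which is also a CANNTG, was found for 2 genes and in 4270 of the 32841 windows, and in 12.0% of those of expressed genes. The MEF2 site was found for 2 genes, Klhl41 and Xirp2, in 2.92% of all windows and in 1.57% of those of expressed genes. The CArG box was found for 1 gene, Asb2, in 1.47% of all windows and in 1.22% of those of expressed genes. TATAAA on either strand was found for 1 gene, Smyd1, in 12.4% of all windows and in 6.59% of those of expressed genes. The match of Smyd1 lies on the strand opposite the gene, whose own strand reads TTTATA there. Windows of Unc45a and Klhl31 held none of these patterns. Such matches describe letters and are not sites of binding.

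**Figure D2:**
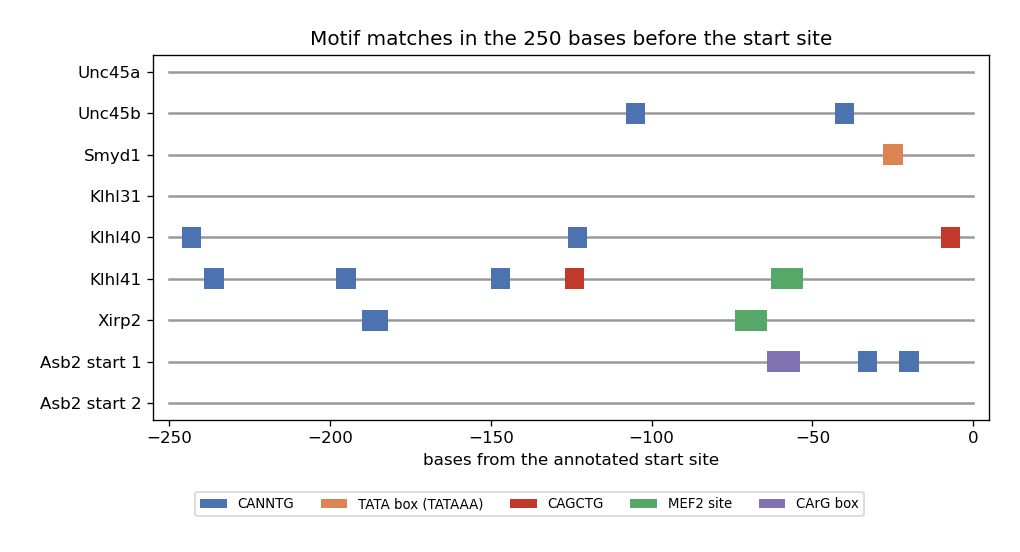
Motif matches on either strand in the 250 bases before each RefSeq start site, with the distance from the start on the horizontal axis and 1 line per window. Klhl41 holds 4 CANNTG matches including 1 CAGCTG, and the lines of Unc45a, Klhl31 and the second start of Asb2 are empty. The TATAAA match of Smyd1 lies on the strand opposite the gene.

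Position on the chromosome was examined because Xirp2 and Klhl41 lie on chromosome 2, separated by 2.14 Mb, and Xirp1 and Klhl40 lie on chromosome 9, separated by 1.75 Mb. The nearest gene with a mean of at least 1 FPKM was taken on either side of each of the 10 genes, which gave 20 genes. None of these neighbours reached the 2-fold line in either direction, which 1.21% of all genes did downward and 2.08% upward, so a count of 0 among 20 genes says little about them. Their median log2 ratio was -0.06, and they ranged from -0.46 for Zfp651, 5.9 kb from Klhl40, to 0.45 for B3galt1, 578 kb from Xirp2. B3galt1 stood near the filter, at 0.853 FPKM in WT and 1.53 FPKM in Tet2 KO. Some of the nearest genes were far away, such as Ttc21b at 1189 kb from Xirp2 and Btbd7 at 443 kb from Asb2. Bbs5 and Fastkd1, which lie 2.55 and 2.58 kb from Klhl41, had log2 ratios of -0.16 and -0.27. Nle1, 2.86 kb before Unc45b, had 15.5 FPKM in WT and 15.7 FPKM in Tet2 KO.

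**Figure D3:**
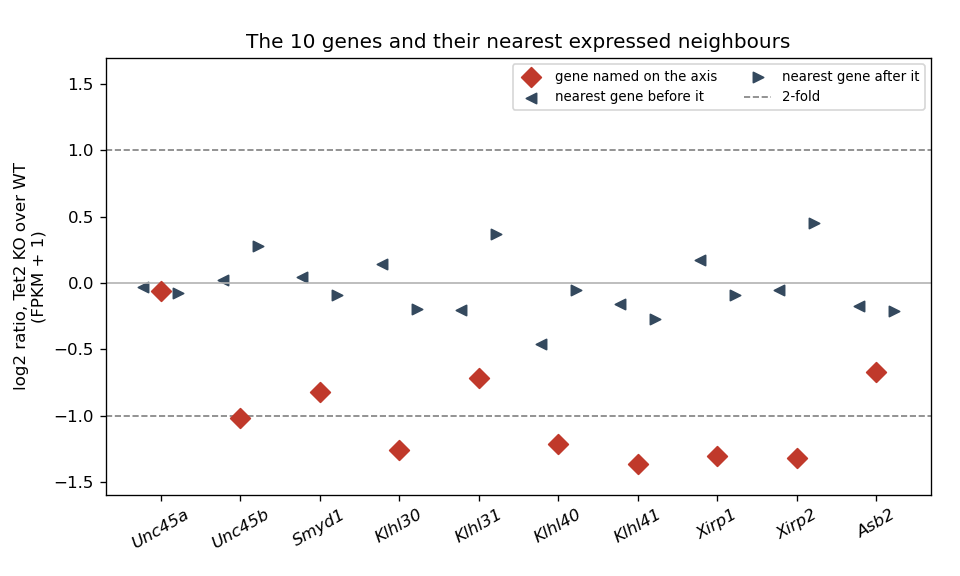
Log2 ratios of the 10 genes (diamonds) and of the nearest expressed gene on either side (triangles), at whatever distance it lay, with dashed lines at 2-fold. Apart from Unc45a, each diamond lies below both of its triangles, and no triangle passes a dashed line.

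The wider families and machines of these genes were then compared. Among 46 other Kelch genes, 34 had a mean of at least 1 FPKM and none reached the 2-fold line. Of all genes, 1.21% did so downward and 2.08% upward. A count of 0 in this list or in the smaller ones below therefore says little. The median log2 ratio of the 34 Kelch genes was -0.11, with 25 below 0 and 9 above. They ranged from -0.84 for Klhl34, which had 1.75 FPKM in WT and 0.543 FPKM in Tet2 KO, to 0.17 for Klhl25. Of 17 other Asb genes, 8 had a mean of at least 1 FPKM and none was 2-fold lower, against 1.21% of all genes. Asb5, the most abundant of them, had 233 FPKM in WT and 185 FPKM in Tet2 KO, the lowest log2 ratio of that family at -0.34. Asb4 was 2-fold higher, with 2.01 FPKM in WT and 5.43 FPKM in Tet2 KO. All 6 listed genes of the Cullin 3 and Cullin 5 ligase core were short of the line, from -0.12 for Rnf7 to -0.02 for Cul3.

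General folding machinery differed little. In a list of 16 genes of the Hsp90 machine, which works with Unc45 proteins, none was 2-fold lower or higher. Of all genes, 1.21% and 2.08% were, so that count says little by itself. The median log2 ratio of the list was -0.0023. The list ran from -0.26 for Bag3 to 0.19 for Fkbp5, and Hsp90aa1 had 574 FPKM in WT and 552 FPKM in Tet2 KO. In 11 genes of the chaperonin and prefoldin, which fold actin, the median was -0.01, from -0.07 for Cct8 to 0.07 for Cct6a. Smyd2, Smyd3, Smyd4 and Smyd5, with Naca and Btf3, had a median of -0.01 and ran from -0.11 for Smyd2 to 0.20 for Smyd4.

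Clients and partners of the 10 genes came closest to them. Of 23 genes in that list, 22 had a mean of at least 1 FPKM, 10 were 2-fold lower and none was 2-fold higher, against 1.21% and 2.08% of all genes, with a median log2 ratio of -0.93. They ran from -1.86 for Myh1 to 0.19 for Tln1. Among 12 muscle transcription regulators, 2 were 2-fold lower, against the same 1.21% of all genes: Mef2c had 27.8 FPKM in WT and 11.1 FPKM in Tet2 KO, and Myog had 554 and 268 FPKM. Myod1 had 336 and 313 FPKM.

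**Figure D4:**
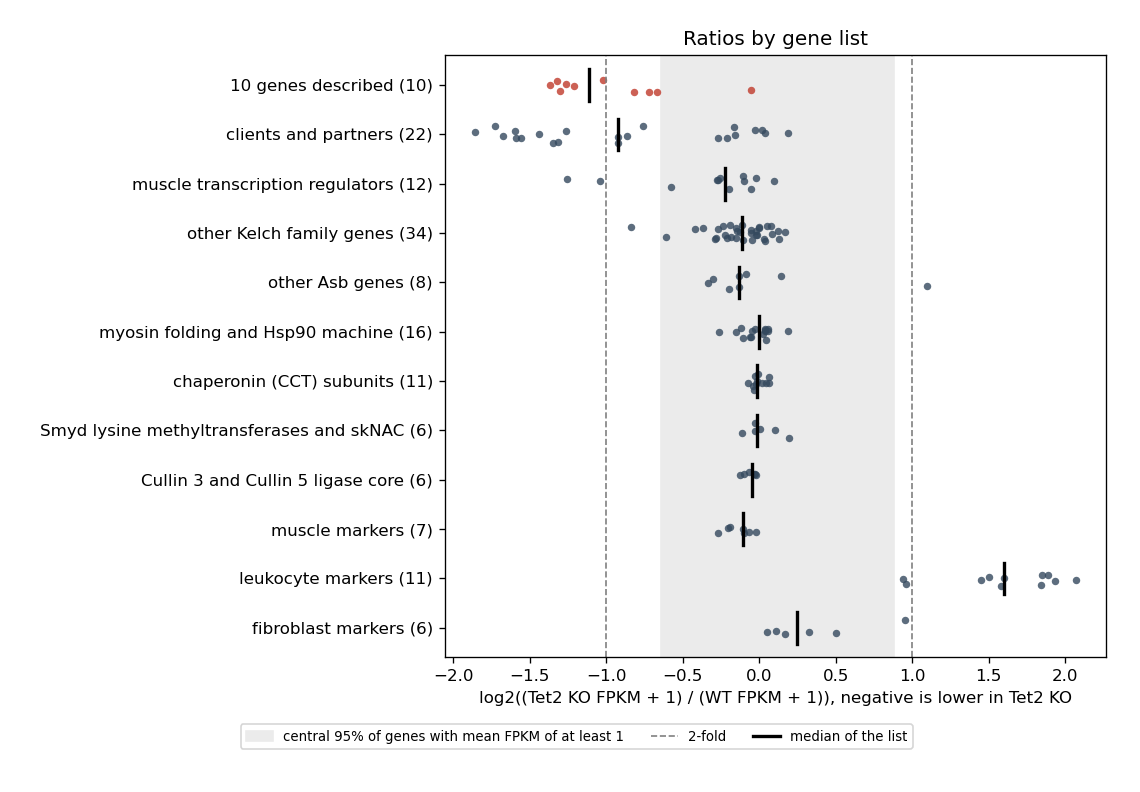
Log2 ratios of single genes by list, Tet2 KO over WT at a pseudocount of 1 FPKM, for genes with a mean of at least 1 FPKM, with the number of genes in brackets and a bar at the median. The grey band holds the central 95% of all 11692 genes, from -0.65 to 0.88; 9 of the 10 genes described lie left of it, as do 14 of the clients and partners, 2 muscle transcription regulators and 1 other Kelch gene, and no gene of the other lists.

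Markers of the cell types in the culture were set beside these results. Muscle markers were present in both groups: 7 of 8 had a mean of at least 1 FPKM, all 7 had ratios slightly below 0 (median -0.10 on the log2 scale), and their sum was 1360 FPKM in WT and 1209 FPKM in Tet2 KO. The remaining marker, Msc, was at or below 0.103 FPKM. All 11 listed leukocyte markers were higher in Tet2 KO, 9 of them at least 2-fold, against 2.08% of all genes. The sum of these markers was 119 FPKM in WT and 471 FPKM in Tet2 KO. Ptprc, which encodes the sorted-out marker CD45, had 1.36 FPKM in WT and 5.67 FPKM in Tet2 KO. Genes of the other sorted-out markers did not all move alike. Itgam (CD11b) had 2.09 FPKM in WT and 10.1 FPKM in Tet2 KO, and Pecam1 (CD31) 1.63 and 1.48 FPKM. Ly6a (Sca1), listed here as a fibroblast marker, stood high in both groups at 278 and 288 FPKM. The 6 fibroblast markers with a mean of at least 1 FPKM had ratios above 0 and none reached the 2-fold line, which 2.08% of all genes did upward. Ly6a and Col3a1 made up most of the list's sums of 438 FPKM in WT and 473 FPKM in Tet2 KO. Those sums therefore say little about the lower markers. Dcn had 3.15 FPKM in WT and 7.04 FPKM in Tet2 KO, Pdgfra 1.06 and 1.91 FPKM. Col1a1 had 2.07 and 2.84 FPKM, and Thy1 2.24 and 2.50 FPKM. Endothelial markers summed to 4.91 FPKM in WT and 3.95 FPKM in Tet2 KO. The part of these other cells in the lower level of the 10 genes was not tested. In pooled RNA, fewer differentiated cells and less RNA per cell cannot be told apart. When ratios were centred on the muscle markers, an alternative chosen after the values were seen, 5 of the 10 genes stayed at least 2-fold lower, and Unc45b did not, at -0.91. On that scale Unc45a turned to 0.05.

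The deleted gene itself, Tet2, had 6.64 FPKM in WT and 5.79 FPKM in Tet2 KO. All exons enter that value and exon 3 is not separated, so it checks nothing about the labels.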

How the data were processed

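RNA of 4 libraries of primary myoblasts, 2 WT and 2 Tet2 KO, had been sequenced from TruSeq v2 libraries. Per the study's methods and the submitters' processing notes, the authors trimmed read pairs, aligned them to mm9 with TopHat2 2.0.13 and ran Cuffdiff 2.2.1, which gave 1 FPKM value per gene and group. The methods speak of Cuffdiff runs on each pairing of KO with WT, while the table holds 1 comparison of a group against a group; how the libraries entered its values, and the annotation, are not given in the sources used here. The deposited FPKM values were taken as the authors' pooled values. The authors' own comparison columns (log2 fold change, test statistic, p-value, q-value and call) were not used, so a planned test across libraries was replaced by a fixed 2-fold line. Depth per library is unknown, and no interval is given.

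A log2 ratio at a pseudocount of 1 FPKM was taken for the 11692 genes with a mean of at least 1 FPKM. The 10 genes and the lists were chosen with earlier results of these data known. Of each list, the highest and lowest gene and those past 2-fold, if at most 8, were named. Partners and neighbours named beside a gene, and single marker genes, were added after their values were seen. Some single genes of the lists are not reported here. The calling step was tested on simulated data. Coordinates are those of the table in mm9 with 1 added to starts. Strand, exons and transcripts came from GENCODE vM1 of the same build, in which Klhl40 and Klhl41 carry older symbols that were matched through RefSeq. Promoter windows came from RefSeq (GRCm38.p6), with 8 of the 10 genes matched (Klhl30 and Xirp1 had no entry), and motifs were searched on both strands. The GENCODE spans of Unc45a, Unc45b and Smyd1 begin upstream of their windows. Alternatives were other pseudocounts, filters, scalings and folds. Python 3.11.15, numpy 2.4.6, pandas 2.3.3 and matplotlib 3.10.9 were used.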

Additional observations from a re-analysis of the deposited data

How the results depend on the processing

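No paired analysis was possible because FPKM came as a single number for each genotype, with none for a library, and leaving out each library was not run for the same reason. Depth is unknown, so the precision of low values such as those of Asb2 cannot be given.

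Of 294 values recomputed under other settings, 282 kept their side of the 2-fold line or, for counts, stayed within 1.5 times, and 12 did not. The count of 6 lower genes among the 10 was 6 under a pseudocount of 0.1, no filter, a mean of at least 5 FPKM, TPM and median centring, 7 without a pseudocount, where Asb2 reached -1.04, and 5 when centred on muscle markers, an alternative chosen after the data were seen. At 3-fold, the 10 genes gave 0 lower genes, clients and partners 5 and muscle transcription regulators 0, and the other Asb genes gave 0 higher. Other Kelch genes, with 0 lower genes at 2-fold, gave 1 at a pseudocount of 0.1, 1 with none, 1 under TPM and 2 at 1.5-fold. The 1 higher gene among the other Asb genes became 0 at a mean of at least 5 FPKM. Muscle transcription regulators went from 2 lower genes to 1 when centred on muscle markers. These changes follow from the construction of each setting, and so do some of the agreements. For the 10 genes, no filter left every ratio as it was, and a mean of at least 5 FPKM dropped only Asb2. Median centring only took the all-gene median of -0.0044 from every ratio. Agreement under those settings is therefore no further support. The ratio of Unc45a was between -0.06 and 0.05 over 8 settings and above 0 in 1 of them, the centring on muscle markers, while the ratios of the other 9 genes were below 0 in all settings where they had a value. The median of the 10 genes ran from -1.01 to -1.21.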
